A study of Homo sapiens with 8 samples.

Results

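Kinesin-2 is encoded here by 5 genes, KIF3A, KIF3B, KIF3C, KIFAP3 and KIF17, whose members were listed by name and found in the count table by Ensembl identifier through GENCODE symbols. All 5 were among the 60725 genes of the table, and all 5 passed the filter on low counts that left 16367 genes for the pooled comparison. Kinesin-2 motors walk along microtubules towards their plus ends. KIF3A pairs with KIF3B or with KIF3C through its coiled coil, the accessory protein KIFAP3 (KAP3) binds the tail of the KIF3A and KIF3B pair and links it to cargo, and KIF17 forms a homodimer that works without KIFAP3. The heterotrimer is best known for carrying intraflagellar transport (IFT) trains from the base to the tip of the cilium, and it also moves vesicles in cells without cilia.

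RNA-seq of polyadenylated RNA was carried out in HAP1, a near-haploid human line of leukaemic origin that grows attached, in a single clone (SC9) that stably expresses dCas9-KRAB. In CRISPR interference (CRISPRi) this fusion of catalytically dead Cas9 and a repressor domain silences the promoter to which a guide RNA leads it. All cells carried dCas9-KRAB, received a guide RNA by lentivirus, were selected with puromycin and were harvested 144 h after transduction. The guide RNA was directed at NELFE (NELFE KD, 3 libraries), NELFB (NELFB KD, 2 libraries) or ADAM22, the negative control of the study (control, 3 libraries). NELFE and NELFB are subunits of the negative elongation factor, which holds RNA polymerase II in a paused state shortly after the start site. The study asked to what extent NELF restrains genes in lamina-associated domains. Library totals ranged from 22037423 to 24444185 counts. The methods of the study describe the NELFE KD and NELFB KD replicates as independent biological replicates, and the control columns carry the same kind of label. Values per library are given as CPM, counts relative to a library total that was scaled by the trimmed mean of M-values (TMM). Changes are log2 fold changes with standard errors (SE) from edgeR.

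The guide RNAs are shown because each knockdown rests on 1 guide. Capitals mark the 12 bases next to the PAM, and coordinates are GRCh38. The NELFE guide matched chr6:31958918-31958936 on the minus strand, in the exonic untranslated part of NELFE 44 bases from its canonical start. The NELFB guide matched chr9:137255369-137255387 on the plus strand, in the coding part of an NELFB exon 51 bases from its canonical start.
NELFE guide: gggcgcgGCCGGAGACCGT
NELFB guide: gccgagcTGGAGGGCGCCG
Near the start sites of the kinesin-2 genes, within 500 bases, the longest match that ran from an NGG PAM was 5 bases for the NELFE guide (KIF17) and 6 bases for the NELFB guide (KIF3B). For KIFAP3 it was 2 bases and 3 bases, a length that 99.96% and 93.06% of 16175 scanned genes reached, whereas each target matched over all 19 bases. With the target included, 2 scanned genes had a match of 19 bases to the NELFE guide and 1 to the NELFB guide. The control guide, which every comparison with control shares, was not scanned.

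The promoters of the heterotrimer genes are printed as the 250 bases before the RefSeq start (GRCh38.p14, 5′ to 3′ on the strand of the gene). These windows end before the start site and do not cover the stretch after it, where NELF holds the polymerase. The part of these sequences in the response of the genes was not tested. Capitals mark matches, on either strand, to the letters of 7 motifs that were picked after the sequences were seen. These were TATAAA for the TATA box, CCAAT for the CCAAT box, GGGCGG for the GC box, TGACG for a half-site of CREB factors, GCATGCG for the core of NRF1 sites, and for half-sites of RFX factors GTTGCC or its variant form GTTGCT. KIFAP3 lies at chr1:170074696-170074945 on the minus strand, KIF3A at chr5:132737547-132737796 on the minus strand and KIF3B at chr20:32277401-32277650 on the plus strand.
KIFAP3: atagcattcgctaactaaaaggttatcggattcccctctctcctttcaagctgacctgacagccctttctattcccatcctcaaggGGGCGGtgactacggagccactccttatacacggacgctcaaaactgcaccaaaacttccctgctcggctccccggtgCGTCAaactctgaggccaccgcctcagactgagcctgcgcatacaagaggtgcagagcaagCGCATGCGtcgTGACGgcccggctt
KIF3A: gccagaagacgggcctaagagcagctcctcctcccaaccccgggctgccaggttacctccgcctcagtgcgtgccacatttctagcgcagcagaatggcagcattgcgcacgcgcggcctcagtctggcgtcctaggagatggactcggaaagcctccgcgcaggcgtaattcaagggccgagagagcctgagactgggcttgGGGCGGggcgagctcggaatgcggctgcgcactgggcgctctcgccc
KIF3B: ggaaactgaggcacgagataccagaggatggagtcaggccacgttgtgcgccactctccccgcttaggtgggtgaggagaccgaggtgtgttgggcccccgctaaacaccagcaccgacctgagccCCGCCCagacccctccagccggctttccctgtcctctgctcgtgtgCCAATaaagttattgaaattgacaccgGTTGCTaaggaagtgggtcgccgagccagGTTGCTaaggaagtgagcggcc
None of the 5 kinesin-2 windows held TATAAA, which 10.7% of 35116 RefSeq windows of this length held, and each of the 5 held GGGCGG, as did 42.6% of all windows. The NRF1 core was found only in the KIFAP3 window among the 5, as a pair of overlapping matches on opposite strands 25 to 18 bases before the start, and 3.39% of all windows held it. The KIFAP3 window also held TGACG at 86 and at 14 bases before the start, and the KIF17 window held it at 75 bases. Of all windows 21.2% held TGACG. KIF3B had GTTGCT at 51 and at 22 bases before the start (10.3% of all windows) and was the only one of the 5 with CCAAT (32.0% of all windows). KIF17 had GTTGCC once and its variant GTTGCT once within its window, and KIF3C had GTTGCC, which 10.2% of all windows held. GC content was 56.4% for KIFAP3, 66.4% for KIF3A, 60.4% for KIF3B, 77.6% for KIF3C and 72.8% for KIF17, beside a median of 58.0% over all windows. A match of letters is a description of the sequence and not a binding site.

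The guide targets were measured first. NELFE was at 50.5, 49.4 and 48.1 CPM in the control libraries, at 2.41, 2.37 and 2.98 CPM in NELFE KD, and at 61.2 and 56.9 CPM in NELFB KD. NELFB was at 74.4, 72.7 and 79.1 CPM in control, at 63.4, 63.9 and 64.0 CPM in NELFE KD, and at 3.07 and 2.78 CPM in NELFB KD. Each target thus retained 5.24% (NELFE) and 3.88% (NELFB) of its control mean in its own knockdown. ADAM22, at which the control guide was directed, was at 12.6 ± 1.25 CPM in control (SD, n = 3), 39.2 ± 8.81 CPM in NELFE KD (n = 3) and 38.3 ± 3.89 CPM in NELFB KD (n = 2). No library lacked a guide, so silencing of ADAM22 in control and a rise in the knockdowns cannot be told apart. The 8 libraries followed their labels at NELFE and NELFB, and ADAM22 was lowest in the control libraries.

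A pair of libraries stood apart from their group mates. The mean chi-square per gene between replicate libraries was 17.1 and 29.4 for pairs with control replicate 1, and 21.1 and 21.4 for pairs with NELFE KD replicate 3. The other pairs lay between 4.25 and 5.99. Values are therefore also given without both of these libraries, an alternative chosen after the data were seen. It sets control replicates 2 and 3 against NELFE KD replicates 1 and 2. Deviations of these NELFE KD libraries from their group mean correlated at -0.386 and -0.397 with those of control replicate 3. With control replicate 2 the correlations were -0.0522 and 0.065. In this alternative, variation between replicates and the knockdown cannot be fully told apart, so it is not a cleaner estimate.

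KIFAP3, the adaptor, was about 3-fold higher in both knockdowns, while KIF3A, KIF3B and KIF3C differed from control by about 1.2-fold or less. The value of KIF17 depended on control replicate 1, with a log2 fold change of 0.11 over all libraries and 0.57 without it in the pooled comparison, and of 0.31 and 0.76 in NELFB KD. The 5 genes were selected on their log2 fold changes in the comparisons of these libraries with control, so the values are a description. No p-value of a member is given, and calls of members are stated only beside the number or share of all genes called.

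KIFAP3 (ENSG00000075945.12, chr1:169921326-170085208, minus strand) was at 60.8, 70.0 and 74.8 CPM in control. It was at 212.4, 170.9 and 201.7 CPM in NELFE KD and at 247.6 and 194.3 CPM in NELFB KD. All 5 knockdown libraries lay above all 3 control libraries, and the lowest knockdown library was more than double the highest control library. The log2 fold change of the pooled knockdowns was 1.59 (SE 0.116), or 3.00-fold. It was 1.51 (SE 0.121) in NELFE KD and 1.69 (SE 0.131) in NELFB KD, and 1.51 (SE 0.158) in the pooled comparison without both libraries that stood apart. Among the 5040 genes with a control mean of at least 50 CPM, KIFAP3 had rank 3 by log2 fold change in the pooled comparison and KIF3B rank 543. The limit was set after the values were seen and the members were chosen on these changes, so the ranks are a description only. In bulk RNA, a larger fraction of cells with the transcript and more transcript per cell cannot be told apart.

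KIF3A (ENSG00000131437.15, chr5:132692628-132737638, minus strand), the motor subunit shared by both heterodimers, was at 46.0, 47.6 and 42.8 CPM in control. It was at 54.8, 59.5 and 49.0 CPM in NELFE KD and at 53.7 and 56.5 CPM in NELFB KD. The groups did not overlap, but NELFE KD replicate 3 (49.0 CPM) lay close to the highest control library (47.6 CPM). The pooled log2 fold change was 0.27 (SE 0.078), and 0.31 (SE 0.0719) without both libraries that stood apart.

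KIF3B (ENSG00000101350.7, chr20:32277651-32335011, plus strand), the usual partner of KIF3A in the trimer, was at 69.5, 85.7 and 91.5 CPM in control. It was at 99.9, 92.4 and 93.4 CPM in NELFE KD and at 98.7 and 96.1 CPM in NELFB KD. Control replicate 1 was the lowest library, and the highest control library (91.5 CPM) lay just below the lowest knockdown library (92.4 CPM). The pooled log2 fold change was 0.23 (SE 0.0849), and it was 0.12 without control replicate 1 and 0.13 (SE 0.0601) without both libraries that stood apart.

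KIF3C (ENSG00000084731.13, chr2:25926598-25982749, minus strand), the alternative partner of KIF3A that is most abundant in neurons, was at 51.6, 42.0 and 36.8 CPM in control. It was at 40.02, 36.1 and 30.6 CPM in NELFE KD and at 43.9 and 42.0 CPM in NELFB KD. The groups overlapped, with the highest value in control replicate 1 and the lowest in NELFE KD replicate 3, the libraries that stood apart. The pooled log2 fold change was -0.17 (SE 0.129) over all libraries and 0.04 (SE 0.0869) without both of them.

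KIF17 (ENSG00000117245.12, chr1:20664014-20718017, minus strand), the homodimeric motor known from neuronal dendrites and from sensory cilia, was the least abundant member. It was at 5.25, 2.62 and 2.41 CPM in control, at 3.32, 2.80 and 3.96 CPM in NELFE KD and at 4.52 and 4.02 CPM in NELFB KD. Raw counts were between 55 and 131, so counting error weighs more here than for the other members. The groups overlapped only through control replicate 1. The pooled log2 fold change was 0.11 (SE 0.258), and without control replicate 1 it was 0.57.

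**Figure D1:**
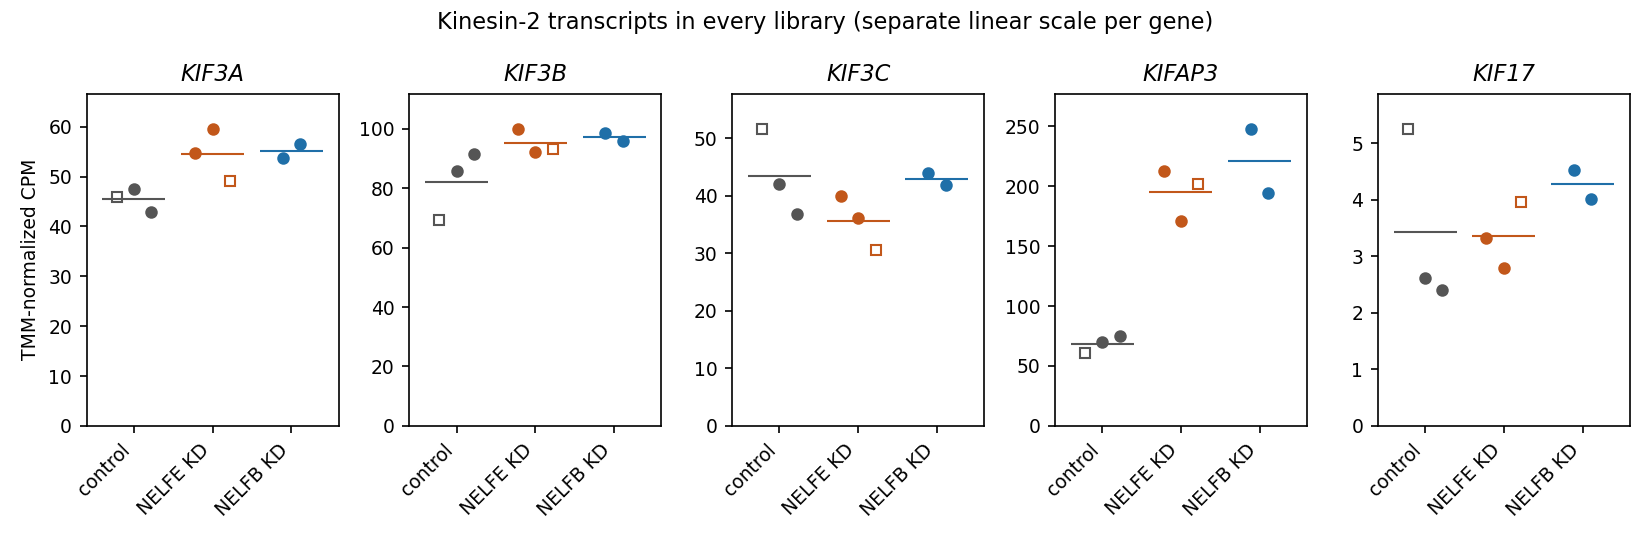
TMM-normalized CPM of the 5 kinesin-2 genes (vertical axes, linear from 0, a separate scale for each gene) in control (grey), NELFE KD (orange) and NELFB KD (blue). Each point is 1 library, horizontal lines are group means, and open squares are control replicate 1 and NELFE KD replicate 3. KIFAP3 lies between 60.8 and 74.8 CPM in control and between 170.9 and 247.6 CPM in the knockdowns, whereas KIF3C and KIF17 overlap between groups.

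The number of kinesin-2 genes among the genes called at an adjusted p under 0.05 is given with the share of all tested genes. In the pooled comparison 2 of 5 members (KIFAP3 and KIF3A) were among the called genes, and 26.0% of 16367 tested genes were called. In NELFE KD and in NELFB KD 1 of 5 (KIFAP3) was among them, beside 15.0% and 19.5% of 16852 tested genes. KIF3A was no longer among the called genes of the pooled comparison without control replicate 2 or 3, NELFE KD replicate 1 or 2, or NELFB KD replicate 2. In those fits between 2688 and 3392 genes were called in all. KIF3B was among the called genes of the pooled comparison without control replicate 3, beside 2993 of 16782 genes. Without NELFE KD replicate 3, KIF3A was called in NELFE KD, beside 3123 of 16810 genes, and in NELFB KD, beside 4148 of 16810. Without control replicate 1, KIF17 was called in NELFB KD, beside 4316 of 16685 genes. A replicate block called 4 of 5 members in the pooled comparison (KIF3B and KIF3C in addition), beside 5636 of 16367 genes. In NELFE KD the block called 3 of 5 (KIF3A and KIF3C in addition), beside 4763 of 16852 genes. In NELFB KD the block called 1 of 5, beside 4811 of 16852 genes. Without both libraries that stood apart, KIF3A was also among the called genes in NELFE KD, where 36.0% of 16589 tested genes were then called, as were KIF3A and KIF17 in NELFB KD, where 41.5% were. Between the knockdowns 0 of 5 was called, beside 0.315% of all genes (53 genes). Knockdown and control libraries did not overlap for KIFAP3, KIF3A and KIF3B, all higher in knockdown, a separation seen for 14.7% of tested genes in that direction. Nothing is read from these counts, since the members were chosen with their changes known. The median log2 fold change of the 5 members was 0.23 in the pooled comparison, beside 0.00 over all tested genes.

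The knockdowns were then set beside each other. The log2 difference of NELFE KD from NELFB KD was -0.18 for KIFAP3, with a 95% interval from -0.47 to 0.11. The intervals ran from -0.24 to 0.20 for KIF3A, from -0.28 to 0.21 for KIF3B, from -0.60 to 0.06 for KIF3C and from -1.045 to 0.35 for KIF17. Each interval held 0, and those of KIF3B, KIF3C and KIF17 also held differences larger than the changes from control given above. Both knockdowns were set against the same 3 control libraries.

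Levels of different genes were compared per length, as TPM, in which counts are divided by the exon length of each gene and then scaled to the same total in every library. In control the order of mean TPM was KIFAP3 (56.3 ± 5.07), KIF3B (55.0 ± 6.92), KIF3C (27.8 ± 5.19), KIF3A (27.1 ± 1.77) and KIF17 (3.15 ± 1.50; SD, n = 3 each). KIFAP3 and KIF3B overlapped between libraries, as did KIF3C and KIF3A, whereas KIF3B was separate from KIF3C and KIF3A from KIF17. With coding length in place of exon length, KIF3B stood above KIFAP3 and KIF3A above KIF3C, so the order inside each of these pairs depends on the length used. In NELFE KD the order was KIFAP3 (162.9 ± 18.3), KIF3B (64.8 ± 4.43), KIF3A (33.1 ± 4.18), KIF3C (23.2 ± 3.84) and KIF17 (3.12 ± 0.444; n = 3 each), and all neighbours in it were separate. NELFB KD had the same order, again with separate neighbours, with KIFAP3 at 183.8 ± 31.15 TPM (n = 2).

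The 5 genes together summed to 163.9, 173.0 and 171.2 TPM in control, 315.3, 272.3 and 273.6 TPM in NELFE KD and 337.7 and 292.0 TPM in NELFB KD. KIFAP3 made up 33.2% ± 2.22 of this sum in control (n = 3), 56.7% ± 2.99 in NELFE KD (n = 3) and 58.2% ± 3.92 in NELFB KD (n = 2). The share of KIF3A went from 16.0% ± 1.20 in control to 11.6% ± 1.67 in NELFE KD and 10.6% ± 1.48 in NELFB KD, although its own level was higher there.

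Ratios within a library do not depend on the scaling between libraries. KIFAP3 over KIF3B was 1.075, 1.003 and 1.005 in control. It was 2.61, 2.27 and 2.65 in NELFE KD and 3.08 and 2.485 in NELFB KD. KIFAP3 over KIF3A was 1.82, 2.03 and 2.41 in control, 5.34, 3.96 and 5.67 in NELFE KD and 6.36 and 4.74 in NELFB KD. Both ratios were above the control range in all 5 knockdown libraries. KIF3B over KIF3A, the ratio of the paired motor subunits, was 2.04 ± 0.351 in control, 1.97 ± 0.207 in NELFE KD and 1.99 ± 0.109 in NELFB KD and overlapped between groups. KIF3C over KIF3B was 0.709 in control replicate 1, 0.468 and 0.385 in the other control libraries, and between 0.313 and 0.425 in the knockdowns.

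**Figure D2:**
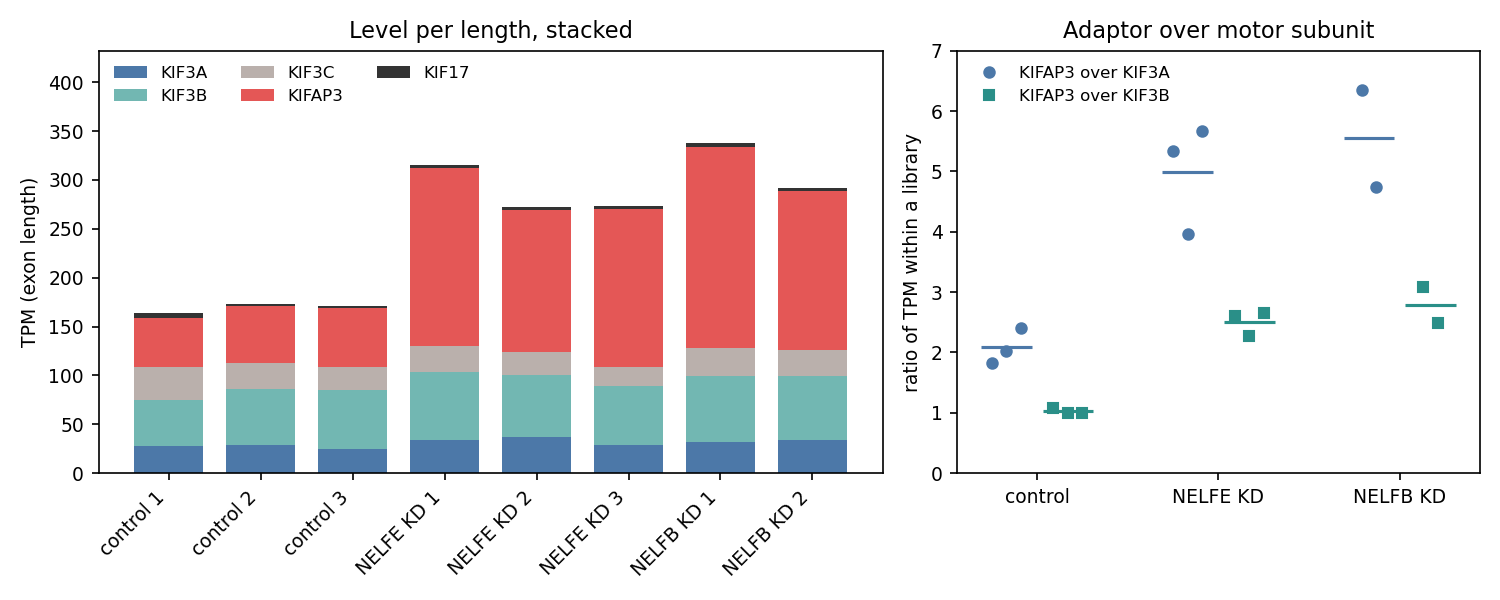
Left, TPM per exon length (vertical axis, from 0) of the 5 kinesin-2 genes stacked for each of the 8 libraries. Right, TPM of KIFAP3 divided by that of KIF3A (circles) or KIF3B (squares) in the same library, with group means as lines. The stack is 163.9 to 173.0 TPM in control and 272.3 to 337.7 TPM in the knockdowns, and KIFAP3 over KIF3B is 1.003 to 1.075 in control and 2.27 to 3.08 in the knockdowns.

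Other genes in the kinesin-2 loci were examined for shared change. Reads were counted without strand, so reads from overlapping genes cannot be assigned to a strand. The genes that overlap KIFAP3 had at most 1 count in any library. The long non-coding RNA that overlaps KIF3A on the opposite strand (ENSG00000230612) had at most 13, and the pseudogene in KIF17 had 0. Within 100 kb of the canonical starts, 14 neighbouring genes were tested and 4 of these were called, beside 26.0% of all tested genes. The only tested neighbour of KIFAP3 was NTMT2, an N-terminal methyltransferase gene, at 0.231 ± 0.098 CPM in control, 0.495 ± 0.206 CPM in NELFE KD and 0.799 ± 0.043 CPM in NELFB KD. It rose by 1.42 on the log2 scale (SE 0.438, adjusted p = 0.0336 in edgeR's quasi-likelihood test) from at most 20 counts, and it was called in 2 of 8 fits that left out a single library. Next to KIF3A, SOWAHA fell (log2 fold change -0.73, SE 0.18), while SEPTIN8 (-0.00) and SHROOM1 (0.18) did not pass the test. Next to KIF17, SH2D5 fell (-0.61, SE 0.127) and PINK1-AS rose (0.65, SE 0.139), and like SOWAHA both were called in 8 of 8 such fits. PINK1, the mitochondrial kinase gene, had a value of 0.33 with an adjusted p of 0.053 in edgeR, and DDOST and HP1BP3 had values of -0.03 and 0.05. No tested neighbour of KIF3B (PLAGL2, POFUT1, ASXL1 and TSPY26P) or of KIF3C (RAB10) passed the test.

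Cargo and pathway genes were taken from lists chosen with earlier results of these data known. A gene was called at an adjusted p under 0.05 in the pooled comparison (edgeR, 5 against 3 libraries), where 13.3% of tested genes rose, 12.7% fell and the median log2 fold change was 0.00. IFT-B is the complex that the KIF3 trimer carries towards the ciliary tip. Of its 17 tested genes 3 rose, none fell, and the median log2 fold change was 0.03. TTC30B (IFT70B) was at 12.1, 14.1 and 15.02 CPM in control, 22.3, 21.2 and 22.8 CPM in NELFE KD and 27.3 and 26.1 CPM in NELFB KD, without overlap (log2 fold change 0.80, SE 0.111, adjusted p = 0.000724). Its near-identical copy TTC30A (IFT70A) rose by 0.75 (SE 0.15), and reads shared by both copies were not counted. IFT80, a peripheral IFT-B subunit, was at 24.1, 22.3 and 19.4 CPM in control, 29.2, 35.2 and 28.4 CPM in NELFE KD and 31.9 and 32.2 CPM in NELFB KD (0.52, SE 0.0995). Its groups did not overlap either. IFT81, the most abundant IFT-B gene by CPM and part of the tubulin-binding module, was at 55.8 ± 2.00 CPM in control with a log2 fold change of 0.05 (SE 0.0714).

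IFT-A and dynein-2 serve the return trip to the ciliary base. None of 7 IFT-A genes was called, with a median of 0.05 and with WDR35 (IFT121) the most abundant at 66.9 CPM in control (0.06, SE 0.0722). Of 5 dynein-2 genes, which encode the minus-end directed ciliary motor, DYNC2I2 (WDR34) fell by 0.38 (SE 0.0983, adjusted p = 0.0151), from 92.6 ± 9.87 CPM in control to 73.9 ± 4.73 CPM in NELFE KD and 66.6 ± 11.4 CPM in NELFB KD. Its adjusted p was 0.0518 without control replicate 1. Without both libraries that stood apart, 19.8% of 16589 tested genes rose and 20.2% fell in the pooled comparison, and the list counts without them are read beside those shares. There 1 IFT-A gene rose, and 2 dynein-2 genes rose and 1 fell.

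The BBSome is a cargo adaptor that rides on IFT trains. Of the 9 genes of that list 4 rose and none fell, with a median of 0.10. ARL6 (BBS3), the GTPase that recruits the complex to membranes, rose from 8.79 ± 0.737 CPM in control to 12.1 ± 0.285 CPM in NELFE KD and 12.8 ± 1.04 CPM in NELFB KD (0.50, SE 0.104). The subunits BBS9, BBS2 and BBS4 rose by 0.56, 0.43 and 0.30, with overlapping groups for BBS2. BBS7, the most abundant of the list by CPM in control but not in the knockdowns, had a value of -0.06. The count of calls was 1 without control replicate 2 or without control replicate 3, and 4 without both libraries that stood apart.

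Among 8 tested ciliary kinase and GTPase genes, the MAP kinase-like MOK rose by 0.38 (SE 0.117). It was called in 2 of 8 fits that left out a single library. RAB11A, a GTPase of recycling endosomes and the most abundant of the list, was at 327.1 CPM in control (-0.11, adjusted p = 0.213 in edgeR). The median of that list was -0.07, and without both libraries that stood apart 1 of its genes rose and 4 fell.

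RFX transcription factors bind X-box motifs of ciliary genes. Of 6 tested genes 3 rose and 1 fell, with a median of 0.36. RFX5, better known for MHC class II genes, was at 56.1, 55.05 and 46.6 CPM in control, 95.2, 89.2 and 70.6 CPM in NELFE KD and 89.7 and 83.05 CPM in NELFB KD, without overlap (0.70, SE 0.103, adjusted p = 0.000961). RFX3, a regulator of ciliogenesis, was at 37.2, 30.5 and 28.0 CPM in control, 44.7, 45.7 and 41.2 CPM in NELFE KD and 49.99 and 52.4 CPM in NELFB KD (0.55, SE 0.108). RFX2, a close relative, rose by 0.60 (SE 0.115). RFX1 fell by 0.59 (SE 0.138). RFX7, the most abundant by CPM, had a value of -0.145 (adjusted p = 0.139 in edgeR). FOXJ1, the master factor of motile cilia, was not tested, with at most 11 counts in any library.

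Hedgehog signalling in vertebrates passes through the cilium. Of 11 tested genes 1 rose and 1 fell, with a median of -0.05. The receptor PTCH1, itself a Hedgehog target, was at 71.0, 68.9 and 63.6 CPM in control, 106.3, 95.9 and 80.3 CPM in NELFE KD and 99.0 and 98.9 CPM in NELFB KD (0.50, SE 0.0897, adjusted p = 0.00255). HHIP, which binds the ligands and is also a target, fell by 0.87 (SE 0.261) with overlapping groups and was called in 3 of 8 fits that left out a single library. The target GLI1 had a value of -0.04 (adjusted p = 0.877 in edgeR), and the signal transducer SMO, the most abundant by CPM in control but not in the knockdowns, -0.05.

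Kinesins outside the kinesin-2 family mostly carry other cargo or act on the spindle. Of 37 tested genes 1 rose and 9 fell, with a median of -0.09. KIF18B and KIF2C, which shorten microtubules in mitosis, fell by 0.57 (SE 0.0894) and 0.40 (SE 0.068). KIF26A, an atypical kinesin without motor activity, fell by 0.69 (SE 0.123). KIF1A, a transporter of synaptic vesicle precursors and the most abundant kinesin of the list by CPM, was at 707.4, 665.9 and 661.9 CPM in control, 601.4, 541.8 and 518.9 CPM in NELFE KD and 515.6 and 529.8 CPM in NELFB KD (-0.32, SE 0.0685). KIF5C rose by 0.23 (SE 0.0671) and was called in 3 of 8 fits that left out a single library. Without NELFB KD replicate 1, 5 genes of the list fell. None of 4 kinesin light chain genes, which adapt kinesin-1 to cargo, was called, with a median of -0.07 and with KLC2 the most abundant by CPM (-0.08). Without both libraries that stood apart, 1 light chain gene rose and the median was 0.13, and without control replicate 1 alone 1 rose and the median was 0.08. Without both libraries that stood apart, beside the 19.8% of all tested genes that rose and 20.2% that fell, 5 other kinesins rose and 13 fell, and 5 IFT-B genes rose and 2 fell.

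Genes whose level was most like that of each member over the 8 libraries were found by Pearson's r of log2 CPM among 12793 genes. The libraries share their group means and total scaling, so r is a description. KIFAP3 was followed most closely by SH3BP5, which encodes a regulator of RAB11, the kelch-repeat gene KLHDC8B and the histone gene H4C9, with r of 0.996, 0.995 and 0.993. H4C9 has near-identical copies, which makes its count uncertain. SH3BP5 was at 4.25 ± 0.492 CPM in control, 14.1 ± 1.65 CPM in NELFE KD and 16.5 ± 1.44 CPM in NELFB KD. For KIF3A the nearest genes included the microtubule-binding MAP6 (r = 0.992) and the ion transporter gene SLC12A2 (0.990). For KIF3B they were USP8 (0.981), HERPUD1 (0.979) and KCTD10 (0.976). For KIF3C they were TP53I11, TNFAIP2 and ENPP1 (0.990, 0.982 and 0.982), and for KIF17 they were MBP, ANKRD33B and GKAP1 (0.957, 0.947 and 0.946). Among the members, r was 0.799 for KIFAP3 with KIF3B, 0.770 for KIFAP3 with KIF3A and 0.529 for KIF3A with KIF3B. It was -0.556 for KIF3B with KIF3C.

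Markers of multiciliated, neuronal and haematopoietic cells were examined as well. Of 11 markers of multiciliated cells 5 were tested, DNAH5 rose, MCIDAS and CCNO fell (MCIDAS not without control replicate 3), and GMNC, DNAH9 and TEKT1 had at most 3 counts in every library. Their summed level was 22.5, 19.9 and 21.7 CPM in control, 16.5, 15.1 and 16.9 CPM in NELFE KD and 13.3 and 17.4 CPM in NELFB KD, with CCNO the most abundant in control and in NELFE KD and MCIDAS in NELFB KD. Of 8 neuronal markers 5 were tested, MAP2 and DCX rose, and STMN2 had at most 3 counts in every library. Their sum was 23.7, 29.4 and 18.0 CPM in control, 66.5, 66.0 and 32.7 CPM in NELFE KD and 55.7 and 50.5 CPM in NELFB KD, led by MAP2, a microtubule-associated protein (log2 fold change 1.54, SE 0.31). This sum moved with KIFAP3 between the groups, but NELFE KD replicate 3 was at 32.7 CPM for the sum and at 201.7 CPM for KIFAP3. Of 8 haematopoietic markers 2 were tested, CD34 rose from under 1 CPM (not without control replicate 1 or 3), and PTPRC, SPI1 and MPO had at most 3 counts in every library. Their sum was 58.5, 61.6 and 57.7 CPM in control, 65.4, 63.9 and 55.0 CPM in NELFE KD and 61.2 and 60.8 CPM in NELFB KD, nearly all from TAL1. The part of these markers in the kinesin-2 values was not tested.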

How the data were processed

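The authors aligned single-end 65-base reads to GRCh38 with STAR 2.5.4a and counted reads per gene of Gencode v24 without strand (quality control by FastQC 0.11.6, per the labels). The deposited values are raw counts, 1 column for each of 8 libraries, not normalized or filtered. Symbols, lengths and positions came from GENCODE v44 by Ensembl identifier. Genes were filtered with filterByExpr and tested with the quasi-likelihood test of edgeR 4.0.16 (R 4.3.3, TMM, robust fit), with Benjamini-Hochberg adjustment over all tested genes. The pooled comparison used 2 groups and the others a model of 3 groups. The script was tested on simulated data. TPM used the union of exons and all genes with a length. Intervals are 95% t intervals of the fit. Precision is limited by 2 or 3 libraries per group. Alternatives were DESeq2 1.42.0, its size factors, other filters, a prior count of 2, a replicate block, other models, other lengths and libraries left out.

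The members and lists were chosen with earlier results of these data known. Named were the members, the guide targets, at most 4 called genes per list (average log2 CPM of at least 1, by size of change) and its most abundant gene by CPM in control, neighbours within 100 kb and the 3 genes most like each member. Some genes that meet this rule are not reported here. KIF5C, GLI1, FOXJ1 and marker genes were named after their values were seen. Promoters are RefSeq sequences (GRCh38.p14), found for all 5 members.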

Additional observations from a re-analysis of the deposited data

How the results depend on the processing

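In NELFB KD the log2 fold change of KIFAP3 ran from 1.49 to 1.85 with 1 library left out, with the lowest value without NELFB KD replicate 1. The difference between the knockdowns ran from -0.34 to 0.018. With 1 library left out, KIF17 ran from -0.085 to 0.57 (pooled), from -0.24 to 0.42 (NELFE KD) and from 0.11 to 0.76 (NELFB KD), each time highest without control replicate 1. Without both libraries that stood apart, KIF17 was at 0.54 (pooled) and 0.76 (NELFB KD), and KIF3C at 0.039 (pooled) and -0.050 (NELFE KD). The number of called genes was then 6625 (pooled), 5980 (NELFE KD), 6888 (NELFB KD) and 296 (between knockdowns), against 4255, 2520, 3290 and 53 over all libraries. With 1 library left out it ran from 2688 to 5125, from 990 to 3123, from 603 to 4316 and from 27 to 78. Without NELFB KD replicate 1 or 2 the lone NELFB KD library is assumed to vary like the other groups. Between the knockdowns DESeq2 called 90 genes and a fit without the filter 161. Ranks of 4 members changed with coding length and with CPM (4 again), by swaps inside the pairs KIFAP3 with KIF3B and KIF3C with KIF3A. Of 20 list genes that met the rule for naming, 13 were called in every fit with 1 library left out. The cause of these shifts was not tested.

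Same-numbered libraries were not shown to be paired. The correlations of their deviations from the group means were 0.347, 0.065 and 0.549 for control with NELFE KD, -0.0326 and -0.0176 for control with NELFB KD, and 0.114 and 0.253 between the knockdowns. Those of differently numbered libraries ran from -0.443 to 0.287 for control with NELFE KD and from -0.0272 to 0.0326 for control with NELFB KD. Between the knockdowns they ran from -0.253 to 0.102. A replicate block gave 5636 called genes in the pooled comparison, 4763 in NELFE KD, 4811 in NELFB KD and 195 between the knockdowns. The block also changed which members were called, as given above.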
